A study of Homo sapiens with 6 samples.

Results

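The interleukins are secreted proteins, named for signalling between white blood cells, and each acts on cells that carry its receptor chains. This account covers the interleukin and interleukin receptor genes of K562 cells, a human leukaemia line grown in suspension. Members were all gene symbols made of IL, a number and further capitals or digits that had at least 10 counts in total over 6 RNA-seq libraries. Of the 60609 genes in the count tables, 92 carried such a symbol and 57 of them reached that total. The 57 comprised 23 ligand genes, 31 receptor genes and 3 others, namely the IL-18 binding protein IL18BP, the amino acid oxidase IL4I1 and the pseudogene IL9RP3. The rule uses symbols and totals over both groups, and not the differences between them.

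All 6 libraries came from K562 cells that the methods describe as homozygous for a dTAG degron (FKBP12 F36V-2xHA) on EP400. All were exposed to 500 nM dTAGV-1 for 24 h to remove that EP400. EP400 is the ATPase and scaffold of the TIP60 chromatin remodelling and histone acetyltransferase complex, and TRRAP is the large subunit of it that meets transcription activators. The cells were complemented from the AAVS1 locus with WT EP400 (3 libraries) or with Delta-TRRAP EP400 (3 libraries), which lacks the SANT and HD domains and no longer holds the TRRAP module. The comparison asks which transcripts differ when TIP60 lacks TRRAP. According to the methods each complemented line was 1 clone, so the EP400 form and the clone cannot be told apart, and p-values measure the spread between libraries of a clone.

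The libraries held 35076835 to 42616061 counts each. A count was seen for 25668 to 25998 genes in the WT libraries and for 27928 to 28033 genes in the Delta-TRRAP libraries. The line carries the label of a lymphoblast, but the B cell marker MS4A1 had 0 counts in all 6 libraries, and the summed level of 5 B cell markers was at most 1.20 CPM, which are counts scaled to the library. The 8 erythroid markers summed to 731 to 800 CPM in WT and to 1170 to 1330 CPM in Delta-TRRAP libraries.

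Interleukins signal through a few shared receptor designs. Members of the IL-1 family (IL-1, IL-18, IL-33) bring 2 immunoglobulin-type chains together and recruit MyD88, whereas most others (IL-2, IL-4, IL-6, IL-7, IL-10, IL-12 and IL-23 among them) bind cytokine receptor chains that carry JAK kinases and activate STAT factors. One chain often serves several cytokines, as gp130 (IL6ST) does for IL-6 and IL-11 and the common gamma chain (IL2RG) for IL-2, IL-4, IL-7, IL-15 and IL-21. In K562 cells these genes are read as RNA only, and neither protein, secretion nor surface display was measured.

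Interleukin genes called higher in Delta-TRRAP cells outnumbered those called lower, but rises also made up 73.1% of the calls over all genes. A gene was called when edgeR's quasi-likelihood test gave a Benjamini-Hochberg adjusted p of at most 0.01 over all genes tested together with a fold change of at least 2, and genes were tested when their mean normalized count was at least 5. Of the 57 members 48 were tested, 17 were called higher and 6 lower. Over all 19114 genes tested, 22.6% were called, 16.5% higher and 6.08% lower, against 47.9%, 35.4% and 12.5% of the 48 members. The ligands gave 10 higher and 1 lower of 16 tested, and the receptors 7 higher and 5 lower of 29 tested. The 3 others gave edgeR adjusted p of 0.0601 to 0.806. The median log2 fold change was 1.66 for the ligands and 0.24 for the receptors, beside 0.03 for all genes tested. At the adjusted p alone, 29 members (60.4%) passed, against 58.3% of all genes tested.

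The filter on low counts bears on these shares. A mean normalized count of 5 was reached by 11 of the tested members in the Delta-TRRAP group alone and by 3 in the WT group alone, and such genes could pass only by being high in one group. Those of the Delta-TRRAP group were 8 ligands (IL1B, IL1RN, IL15, IL17B, IL24, IL26, IL32 and IL33) and 3 receptors (IL5RA, IL13RA2 and IL17RD), so that the ligand count and median given above rest largely on them. Those of the WT group were IL7, IL7R and IL4I1. Among the 34 members with a mean of at least 5 in both groups, 9 were called higher and 4 lower, while 17.6% of the 17183 genes of the same kind were called, 11.7% higher and 5.84% lower. By class, 4 of 7 such ligands were called higher and the other 3 were not called, and of 25 such receptors 5 were called higher and 4 lower. Of the 29 members with a mean of 5 to 100, 51.7% were called, against 37.1% of all genes at that level. Of the 19 with a mean of 100 or more, 42.1% were called, against 13% of all genes at that level. In 36 of the 48 tested members (75.0%) the groups did not overlap, which was also true of 71.1% of all genes tested. In cultured cells sequenced in bulk, fewer cells expressing a gene and less RNA of it per cell cannot be told apart.

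**Figure D1:**
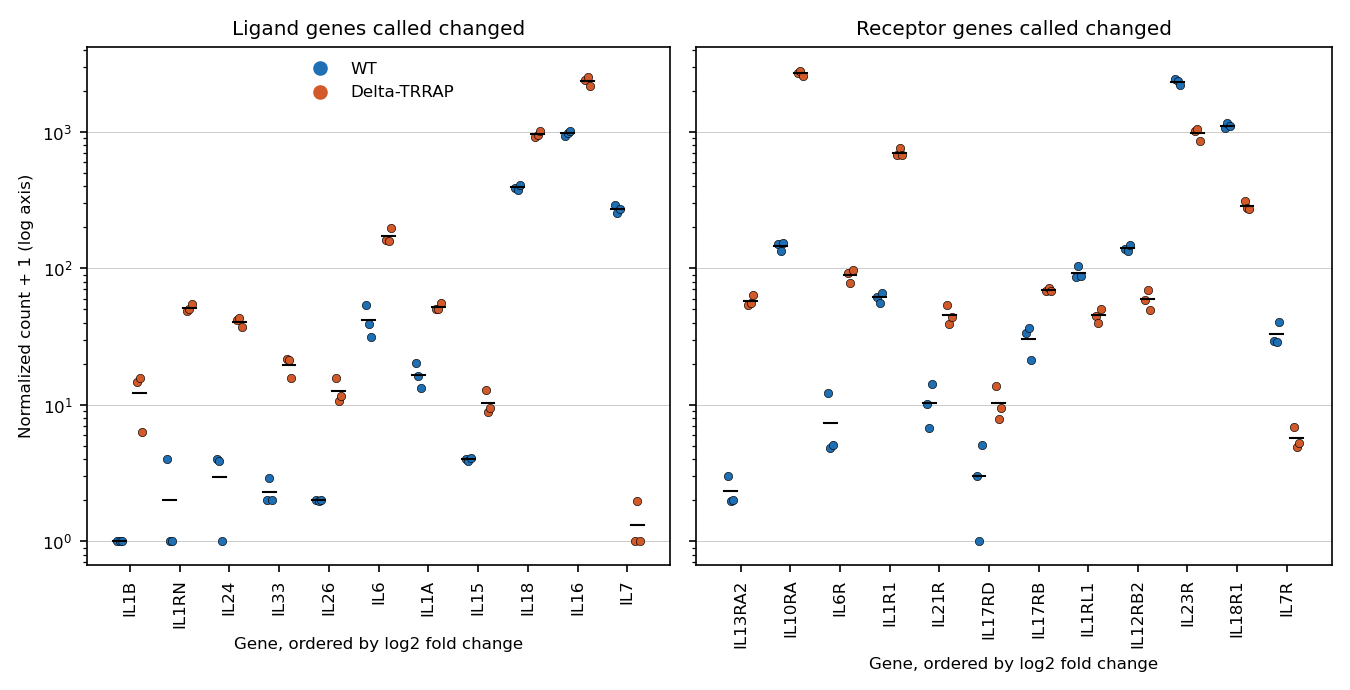
Normalized count plus 1 (log axis) in each of the 6 libraries for the 11 ligand genes (left) and 12 receptor genes (right) called changed, ordered by log2 fold change. Points are libraries (WT blue, Delta-TRRAP orange) and bars are group means. In all 23 genes the 3 libraries of one group lie apart from the 3 of the other. The genes were picked as called, which favours such separation, and the groups did not overlap in 71.1% of all genes tested.

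Start-site windows of 7 members that changed are shown as examples of ligands, binding chains and an antagonist beside short motifs that a script searched. They run from 250 bases before to 50 after an annotated start (RefSeq, GRCh38.p14), are written 5′ to 3′ along the gene's strand, and have any match in capitals on either strand. The motifs were AGATAA (the element of GATA factors), TGANTCA (AP-1), TTCNNNGAA (STAT), CACGTG (E-box) and the NF-kB motif, which is given by name, and windows with a match were picked after their values were seen. The window of IL10RA lies at chr11:117989695-117989994 (+) and has AGATAA and TGANTCA. That of IL6R lies at chr1:154405093-154405392 (+) and has TGANTCA. Those of IL6, at chr7:22726950-22727249 (+), and of a later start of IL1RN, at chr2:113127348-113127647 (+), each have the NF-kB motif. That of IL1B lies at chr2:112836730-112837029 (-) and has TTCNNNGAA and, on the opposite strand, AGATAA. Of the genes that fell, IL18R1, at chr2:102356033-102356332 (+), has AGATAA on the opposite strand and IL7R, at chr5:35856641-35856940 (+), has it on the gene's strand.
IL10RA: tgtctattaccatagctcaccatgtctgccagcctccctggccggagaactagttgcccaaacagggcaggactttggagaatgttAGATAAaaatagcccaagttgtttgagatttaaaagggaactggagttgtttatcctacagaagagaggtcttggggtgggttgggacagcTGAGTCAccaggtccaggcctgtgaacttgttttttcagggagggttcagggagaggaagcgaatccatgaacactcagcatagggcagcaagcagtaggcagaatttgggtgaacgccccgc
IL6R: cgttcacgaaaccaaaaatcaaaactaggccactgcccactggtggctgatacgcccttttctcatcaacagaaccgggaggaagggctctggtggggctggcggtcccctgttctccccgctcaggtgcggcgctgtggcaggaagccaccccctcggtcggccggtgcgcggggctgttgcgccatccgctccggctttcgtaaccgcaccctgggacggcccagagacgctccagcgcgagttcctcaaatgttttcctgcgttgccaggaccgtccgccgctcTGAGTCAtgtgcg
IL6: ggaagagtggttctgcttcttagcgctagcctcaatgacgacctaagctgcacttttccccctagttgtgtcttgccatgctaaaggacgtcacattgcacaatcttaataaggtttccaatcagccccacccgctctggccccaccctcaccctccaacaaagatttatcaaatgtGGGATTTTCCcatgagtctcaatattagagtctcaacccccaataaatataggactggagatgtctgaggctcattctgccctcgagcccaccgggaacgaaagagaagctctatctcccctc
IL1RN: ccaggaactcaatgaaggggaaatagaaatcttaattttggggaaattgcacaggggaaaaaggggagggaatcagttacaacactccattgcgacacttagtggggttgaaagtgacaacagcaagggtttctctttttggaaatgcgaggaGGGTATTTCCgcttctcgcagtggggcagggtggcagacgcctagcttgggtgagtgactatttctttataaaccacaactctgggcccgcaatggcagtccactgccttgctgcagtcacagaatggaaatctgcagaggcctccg
IL1B: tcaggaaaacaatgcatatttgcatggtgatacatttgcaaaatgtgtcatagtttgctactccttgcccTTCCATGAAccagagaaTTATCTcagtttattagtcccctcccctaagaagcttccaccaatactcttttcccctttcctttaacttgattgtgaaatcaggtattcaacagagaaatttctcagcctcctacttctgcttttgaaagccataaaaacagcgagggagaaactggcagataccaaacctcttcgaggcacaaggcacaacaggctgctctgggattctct
IL18R1: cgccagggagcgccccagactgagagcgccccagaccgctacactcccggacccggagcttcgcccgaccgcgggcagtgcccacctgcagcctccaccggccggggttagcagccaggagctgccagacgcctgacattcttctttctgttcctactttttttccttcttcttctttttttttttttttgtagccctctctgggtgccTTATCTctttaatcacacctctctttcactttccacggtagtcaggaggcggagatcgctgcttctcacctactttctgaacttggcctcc
IL7R: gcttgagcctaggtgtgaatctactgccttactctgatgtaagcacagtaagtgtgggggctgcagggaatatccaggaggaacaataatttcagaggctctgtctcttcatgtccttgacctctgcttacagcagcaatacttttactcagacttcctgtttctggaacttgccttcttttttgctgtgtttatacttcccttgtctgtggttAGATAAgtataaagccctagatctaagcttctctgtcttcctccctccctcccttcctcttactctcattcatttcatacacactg

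Over all members such matches were common in some cases and rare in others. The table held 77 windows for 47 of the 57 members, several of them overlapping windows of 1 gene, and 35116 windows for 27305 genes in all. TGANTCA was found in 14 of the 77 (18.2%) and in 7.71% of all windows, and the NF-kB motif in 6 (7.79%) and 1.91%. AGATAA was found in 11 (14.3%) and 10.3%, TTCNNNGAA in 9 (11.7%) and 7.66%, and CACGTG in 3 (3.90%) and 7.26%. Among the 23 windows of members called higher, TGANTCA stood in 5 (21.7%) and AGATAA in 4 (17.4%), beside 7 (18.9%) and 4 (10.8%) of the 37 windows of members tested and not called. TTCNNNGAA and the NF-kB motif stood in 3 each of the 23 and in 5 and 3 of the 37, and CACGTG in 1 of each. The 7 windows of members called lower had AGATAA in 3, TGANTCA in 1 and CACGTG in 1. The member windows were also poorer in G and C, with a median of 53.3% against 58.7%, and a match of these letters is a description and not a bound site.

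Both IL-1 genes and the gene of their antagonist were called higher. IL-1 alpha and IL-1 beta are the 2 agonists that bind the receptor chain IL1R1, and IL1RN encodes the antagonist that occupies the same chain without signalling. All 3 genes lie on chromosome 2 (GRCh38), IL1A (ENSG00000115008.5) at chr2:112773925-112784493, IL1B (ENSG00000125538.12) at chr2:112829751-112836816 and IL1RN (ENSG00000136689.18) at chr2:113099315-113134016. IL1A had normalized counts of 19.2, 15.3 and 12.2 in WT and of 49.0, 49.7 and 55.0 in Delta-TRRAP libraries. The highest WT library stayed well under the lowest Delta-TRRAP library, and IL1A rose by 1.71 ± 0.22 (SE) on the log2 scale (edgeR adjusted p = 5.95e-06). Here and below, the SE is the size of the log2 fold change over the square root of edgeR's F statistic. It can be too small where a group holds few counts.

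IL1B was not seen in WT cells. It had 0 counts in all 3 WT libraries and normalized counts of 13.7, 14.6 and 5.29 in the Delta-TRRAP libraries, 34 counts against 0, which makes it at least 11.4-fold higher where 3 counts over the WT group are taken as the floor. Each Delta-TRRAP library held the transcript, with the lowest at well under the level of the others, and edgeR's adjusted p was 1e-04. Without Delta-TRRAP replicate 1 or 2 the mean of IL1B was below the filter and it was not tested. IL1RN had normalized counts of 3.04, 0 and 0 in WT and of 48.1, 49.7 and 54.0 in Delta-TRRAP libraries. A single WT library held all 3 WT counts, while the Delta-TRRAP libraries lay close together with 151 counts. The ratio was 50.7 (95% exact counting interval 17.0 to 249, edgeR adjusted p = 6.27e-08), and such intervals cover counting error only.

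IL-18 and IL-33 are made as IL-1 family proteins with receptors of their own. IL18 (ENSG00000150782.12, chr11:112143253-112164096), whose product drives interferon gamma release with IL-12, had 385, 377 and 409 normalized counts in WT and 916, 944 and 1019 in Delta-TRRAP libraries. Each group was tight and the groups lay far apart, and IL18 rose by 1.30 ± 0.07 (edgeR adjusted p = 1.84e-10). IL33 (chromosome 9), a nuclear alarmin released from damaged cells, had 1.01, 1.92 and 1.02 in WT and 20.6, 20.5 and 14.8 in Delta-TRRAP libraries. It was near its counting limit in WT and present in each Delta-TRRAP library, a rise of 3.70 ± 0.47 (edgeR adjusted p = 5.06e-06). The rise rests on 4 counts in WT against 56, and IL33 passed the filter through the Delta-TRRAP group alone. No counting interval was made for it, and its SE can be too small.

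From the IL-10 family, IL24 and IL26 passed the filter, both through the Delta-TRRAP group alone. IL24 and IL19 lie near each other on chromosome 1, their products bind receptors that contain IL20RB, and IL26 (chromosome 12) encodes a cytokine that binds DNA. The receptor genes IL20RA and IL22RA1 were outside the members, with 0 and 6 counts in all. IL24 (ENSG00000162892.16, chr1:206897443-206904139) had 3.04, 2.88 and 0 normalized counts in WT and 41.2, 41.9 and 36 in Delta-TRRAP libraries. The groups lay far apart, with 1 WT library at 0, and IL24 rose by 4.24 ± 0.42 (edgeR adjusted p = 2.79e-07). IL26 had 1.01, 0.96 and 1.02 normalized counts in WT and 14.7, 9.75 and 10.6 in Delta-TRRAP libraries. These came from 3 reads against 35, a ratio of 11.7 with a 95% counting interval of 3.70 to 59.7 (edgeR adjusted p = 5.45e-05), and was not tested without Delta-TRRAP replicate 1, since its mean then fell under the filter. IL19 missed the filter with normalized counts of 0, 0 and 0 in WT and 7.85, 5.85 and 15.9 in Delta-TRRAP libraries, 29 counts against 0 and thus at least 9.74-fold higher.

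IL6 and IL16 rose from a level that WT cells already had. IL-6 is the inflammatory cytokine that signals through IL6R and gp130, and IL6 (ENSG00000136244.12, chr7:22725884-22732002) had 52.7, 38.4 and 30.5 normalized counts in WT and 160, 159 and 197 in Delta-TRRAP libraries. Every Delta-TRRAP library was above every WT library, and the rise was 2.08 ± 0.17 (edgeR adjusted p = 3.99e-08). IL16 (ENSG00000172349.17, chr15:81159575-81314058), whose C-terminal fragment is a chemoattractant for CD4+ cells, had 931, 980 and 1021 in WT and 2399, 2514 and 2157 in Delta-TRRAP libraries. The groups were well separated and IL16 rose by 1.27 ± 0.06 (edgeR adjusted p = 1.33e-10).

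IL15 was the least firm of the ligand calls. IL-15 sustains natural killer and memory T cells, and IL15 (chromosome 4) had 3.04, 2.88 and 3.05 normalized counts in WT and 11.8, 7.80 and 8.46 in Delta-TRRAP libraries. The groups did not overlap and the rise was 1.61 ± 0.45 (edgeR adjusted p = 0.00549). The call was lost with DESeq2 (adjusted p = 0.0473), and edgeR's adjusted p was 0.0163 to 0.0279 without any 1 of the WT replicates or without Delta-TRRAP replicate 1.

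IL7 was the 1 ligand gene that fell. IL-7 is the growth factor of developing lymphocytes, made mainly by stromal cells, and IL7 (ENSG00000104432.14, chromosome 8) was the tenth-ranked member in WT cells per unit of transcript length. Its normalized counts were 288, 251 and 270 in WT and 0, 0.97 and 0 in Delta-TRRAP libraries. A single count in 1 Delta-TRRAP library stood against 811 in WT, a ratio of 805 with a 95% counting interval of 144 to 31800 (edgeR adjusted p = 1.21e-12). The 7 other genes within 2 Mb with a mean of at least 100 had a median log2 fold change of -0.37.

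The other tested ligands were not called. IL23A, the p19 chain of IL-23, went from 88.9 ± 2.45 (SD, n = 3) to 52.7 ± 6.14 normalized counts, a log2 difference of -0.76 ± 0.15 that passed the adjusted p (edgeR, 0.000295) and not the fold. IL32, an inflammatory cytokine of natural killer and T cells, gave 1.56 ± 0.52 (edgeR adjusted p = 0.0145), and IL17B 2.16 ± 0.77 (0.0218), with 1 Delta-TRRAP library at 19.5 and the others at 4.90 and 3.17. IL17D and IL11 gave edgeR adjusted p of 0.0824 and 0.871. Below the filter, IL13 was read 3 times in WT and 13 times in Delta-TRRAP cells, a ratio of 4.36 (1.20 to 23.9), and IL5, IL12A, IL21, IL34 and IL4 had group means of 1.32 to 5.78 normalized counts. IL4 was the lowest member, with 11 counts in all, and IL36B with 9 and IL10 with 8 lay just outside.

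**Figure D2:**
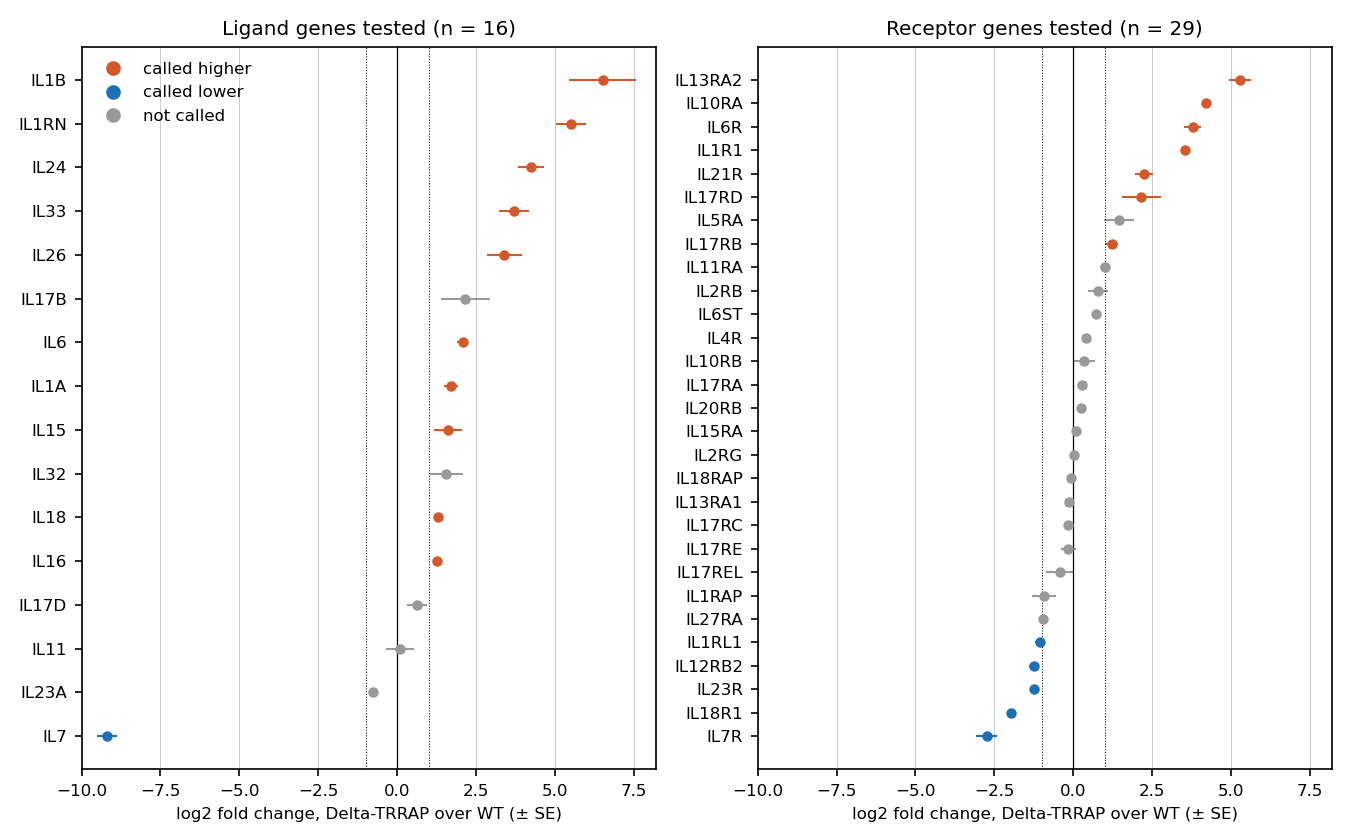
Log2 fold change of Delta-TRRAP over WT with its standard error for the 16 ligand genes (left) and 29 receptor genes (right) that were tested. Orange points were called higher, blue points lower and grey points not called, and dotted lines mark a fold of 2; the ligands lie mostly to the right of 0, whereas 17 receptors lie to the right and 12 to the left.

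Among the receptors, the chain for IL-10 differed with the smallest p. IL10RA (ENSG00000110324.10, chr11:117986370-118003037) encodes the chain that binds IL-10 and signals through JAK1 and STAT3. Its normalized counts were 149, 133 and 153 in WT and 2685, 2812 and 2563 in Delta-TRRAP libraries. Both groups varied little and lay 18.5-fold apart, a rise of 4.21 ± 0.07 (edgeR adjusted p = 9.43e-16). The partner chain IL10RB had 16.7 ± 9.34 against 21.0 ± 2.75 (SD, n = 3 each), a difference of 0.34 ± 0.34 (edgeR adjusted p = 0.389), and 21.6% of its exon length is shared with a read-through transcript, so that its counts are uncertain. IL10 itself, outside the members, had 6, 1 and 1 counts in WT and 0 in each Delta-TRRAP library.

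The signalling receptor of IL-1 and the binding chain of IL-6 rose along with their ligands. IL1R1 (ENSG00000115594.12, chr2:102064544-102179874) had 60.8, 54.7 and 65.1 normalized counts in WT and 678, 755 and 673 in Delta-TRRAP libraries. The groups lay 11.7-fold apart with no overlap, and the rise was 3.54 ± 0.10 (edgeR adjusted p = 1.68e-13). The accessory chain IL1RAP, which IL1R1 needs in order to signal, had 9.65 ± 0.88 in WT and 5.02 ± 0.23 in Delta-TRRAP libraries, a difference of -0.92 ± 0.39 that missed the threshold (edgeR adjusted p = 0.0516). The decoy IL1R2 was below the filter, with 0, 0 and 4.07 in WT and 2.94, 8.77 and 7.40 in Delta-TRRAP libraries, and these ranges overlapped.

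IL6R (ENSG00000160712.13, chr1:154405193-154469450) had 11.2, 3.84 and 4.07 normalized counts in WT and 92.2, 77.0 and 96.3 in Delta-TRRAP libraries. It was low in each WT library and 13.9-fold higher in Delta-TRRAP cells, a rise of 3.78 ± 0.28 (edgeR adjusted p = 1.22e-08). The size depended on WT replicate 1, the highest of the WT libraries, without which it was 4.43. The shared chain gp130, IL6ST (ENSG00000134352.20, chr5:55935095-55995022), had 1746, 1754 and 1765 in WT and 2942, 3203 and 2524 in Delta-TRRAP libraries. The WT libraries were nearly equal and all Delta-TRRAP libraries were above them, and the difference of 0.72 ± 0.07 passed the adjusted p (edgeR, 3e-07) without reaching a fold of 2. IL11RA, the IL-11 chain that also pairs with gp130, lay just under that fold at 1.99 (log2 difference 0.99 ± 0.14, edgeR adjusted p = 1.3e-05), and other transcripts share 32.5% of its exon length.

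Both receptor chains that bind IL-13 were measured. IL13RA2 (ENSG00000123496.8, chrX:115003975-115019977), which has a short cytoplasmic tail and is regarded as a decoy, had 2.03, 0.96 and 1.02 normalized counts in WT and 53.0, 54.6 and 62.4 in Delta-TRRAP libraries. It was near 0 in each WT library and rose 42.5-fold, by 5.29 ± 0.36 (edgeR adjusted p = 3.67e-09). That SE is doubtful with only 4 counts in WT against 169 in Delta-TRRAP cells, and DESeq2 gave an SE of 0.771. The 3 other genes within 2 Mb with a mean of at least 100 had a median log2 fold change of 2.43. IL13RA1 (chromosome X), the signalling chain, had 2800, 3144 and 2995 in WT and 2699, 2900 and 2620 in Delta-TRRAP libraries, which overlapped (-0.12 ± 0.06, edgeR adjusted p = 0.0754), and its sign turned when libraries were scaled by their totals alone. Its partner IL4R differed by 0.41 ± 0.09 (edgeR adjusted p = 0.000551), short of a fold of 2.

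IL21R, IL17RB and IL17RD made up the rest of the receptors that rose. IL21R (chromosome 16), the IL-21 chain that pairs with the common gamma chain, had 9.12, 5.76 and 13.2 normalized counts in WT and 53.0, 38.0 and 43.4 in Delta-TRRAP libraries, a rise of 2.25 ± 0.29 (edgeR adjusted p = 4.9e-06). IL17RB (chromosome 3), which binds IL-25, had 32.4, 35.5 and 20.3 in WT and 67.7, 71.2 and 67.7 in Delta-TRRAP libraries, a rise of 1.22 ± 0.20 (edgeR adjusted p = 5.56e-05). Neither gene's groups overlapped. IL17RD (chromosome 3), a related chain that also restrains growth factor signalling, had 2.03, 0 and 4.07 in WT and 12.8, 6.82 and 8.46 in Delta-TRRAP libraries. All Delta-TRRAP libraries were above the WT libraries at these low counts (2.16 ± 0.62, edgeR adjusted p = 0.00637). That call was lost with DESeq2 (adjusted p = 0.0185) and, by edgeR, without WT replicate 1 (0.0224) or WT replicate 2 (0.0271), its value was 1.57 without WT replicate 2 and 3.09 without WT replicate 3, and the gene was below the filter without Delta-TRRAP replicate 1.

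The receptors that fell included IL-12 and IL-23 chains. IL23R (ENSG00000162594.16) at chr1:67138907-67259979 encodes the IL-23 specific chain, and IL12RB2 (ENSG00000081985.11) lies beside it at chr1:67307364-67398724 and encodes the IL-12 specific chain. IL23R had 2427, 2345 and 2189 normalized counts in WT and 1007, 1055 and 855 in Delta-TRRAP libraries. Each WT library was over each Delta-TRRAP library by a wide margin, and IL23R fell by 1.25 ± 0.07 on the log2 scale (edgeR adjusted p = 5.43e-10). IL12RB2 had 137, 133 and 147 in WT and 57.9, 68.2 and 48.7 in Delta-TRRAP libraries, again with no overlap, and fell by 1.25 ± 0.14 (edgeR adjusted p = 1.36e-06). The 11 other genes within 2 Mb of IL23R with a mean of at least 100 had a median log2 fold change of 0.61. The chain shared by both receptors, IL12RB1, was below the filter at 1.35 ± 1.17 in WT and 7.35 ± 1.45 in Delta-TRRAP libraries (SD, n = 3 each).

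IL18R1 fell while its ligand rose. IL18R1 (ENSG00000115604.10, chr2:102311529-102398777) encodes the chain that binds IL-18, and it had 1070, 1169 and 1094 normalized counts in WT and 309, 276 and 273 in Delta-TRRAP libraries. The groups were far apart, and IL18R1 fell by 1.96 ± 0.07 (edgeR adjusted p = 2.85e-12). The signalling partner IL18RAP, next to it at chr2:102418689-102452565, had 559 ± 23.1 in WT and 529 ± 27.3 in Delta-TRRAP libraries with overlapping ranges (-0.08 ± 0.07, edgeR adjusted p = 0.308), a sign that also turned under scaling by library totals. The IL-33 receptor IL1RL1 (ENSG00000115602.17), whose annotation at chr2:102311502-102352037 runs into the first part of IL18R1 on the same strand, had 85.1, 103 and 86.5 in WT and 44.1, 39.0 and 49.7 in Delta-TRRAP libraries. It fell by 1.05 ± 0.16 with no overlap (edgeR adjusted p = 2.98e-05), and shrank to less than a fold of 2 under scaling by library totals (-0.92), without WT replicate 2 (-0.97) or without Delta-TRRAP replicate 2 (-0.96).

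IL7R fell as did its ligand. The IL-7 receptor chain IL7R (ENSG00000168685.15, chr5:35852695-35879603) had 28.4, 27.8 and 39.7 normalized counts in WT and 5.88, 3.90 and 4.23 in Delta-TRRAP libraries. Every WT library was above the Delta-TRRAP libraries, and IL7R fell by 2.74 ± 0.33 (edgeR adjusted p = 3.07e-06). The 13 other genes within 2 Mb with a mean of at least 100 had a median log2 fold change of -0.58. The common gamma chain IL2RG was at 137 ± 14.0 in WT and 138 ± 11.4 in Delta-TRRAP libraries (0.01 ± 0.12, edgeR adjusted p = 0.941), though 51.3% of its exon length is shared with another transcript on its strand and its sign turned without WT replicate 1 or 2 or Delta-TRRAP replicate 3.

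**Figure D3:**
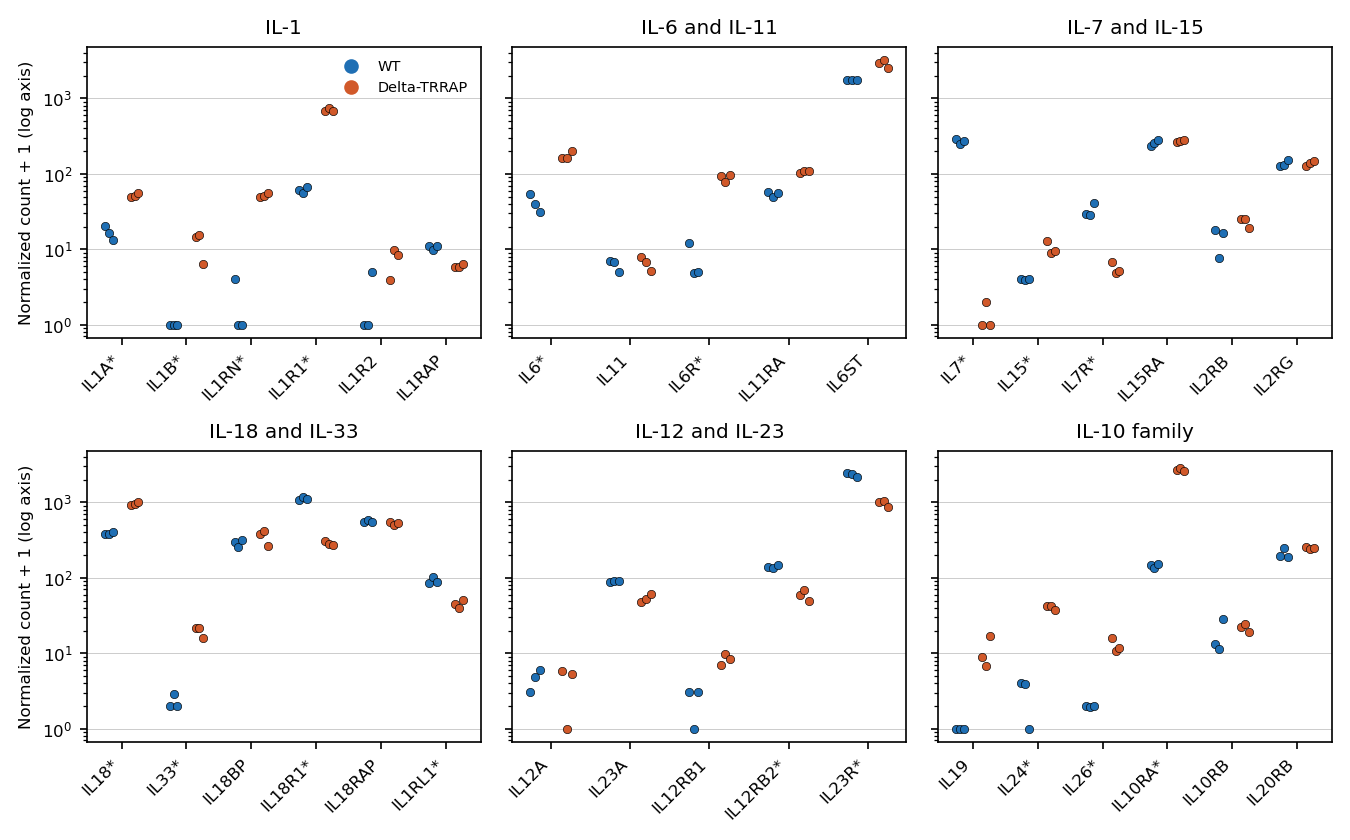
Normalized count plus 1 (log axis) in each library for ligands and receptor chains of 6 interleukin systems, WT blue and Delta-TRRAP orange, with an asterisk on genes called changed. In the IL-1 panel IL1A, IL1B, IL1RN and IL1R1 are higher in Delta-TRRAP cells. In the IL-6 and IL-11 panel IL6 and IL6R are higher and IL11 was not called. In the IL-18 and IL-33 panel IL18 and IL33 are higher and IL18R1 and IL1RL1 lower. In the IL-7 and IL-15 panel IL7 and IL7R are lower, IL15 is higher, and IL15RA, IL2RB and IL2RG were not called.

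The remaining abundant members were not called. IL27RA, the IL-27 chain, went from 1196 ± 27.3 to 622 ± 19.4 normalized counts (SD, n = 3 each), a difference of -0.94 ± 0.06 that passed the adjusted p (edgeR, 1.04e-09) and just missed a fold of 2. IL17RA, the chain shared by IL-17 family receptors, differed by 0.28 ± 0.06 (edgeR adjusted p = 0.000468). IL17RC, IL15RA and IL20RB gave log2 differences of -0.16 ± 0.08, 0.08 ± 0.09 and 0.24 ± 0.11, with edgeR adjusted p of 0.0912, 0.467 and 0.0581, and 46.5% of the exon length of IL17RC is shared. IL18BP, which neutralizes IL-18, had 289 ± 32.5 and 355 ± 80.4 with overlapping ranges (0.30 ± 0.14, edgeR adjusted p = 0.0601). Of the less abundant chains, IL2RB and IL5RA gave 0.78 ± 0.32 and 1.45 ± 0.46 (edgeR adjusted p = 0.0430 and 0.0122).

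Levels were compared between genes per unit of exon length, as TPM, which scales counts per length to a common total. In WT cells IL13RA1 stood first at 61.5 TPM, followed by IL23R at 48.8, IL27RA at 38.9, IL18R1 at 23.7, IL18RAP at 18.1 and IL18 at 14.4. The ranges over libraries of these 6 did not overlap, whereas IL6ST (13.7 to 14.2) overlapped IL18 (13.9 to 15.2), and IL20RB, IL17RC, IL7, IL17RA and IL16 all overlapped between 7.08 and 9.70 TPM. In Delta-TRRAP cells IL13RA1 was again first at 58.5 TPM, and was followed by IL18 at 36.5 (35.4 to 37.4) and IL10RA at 30.2 (27.8 to 32.2), which did not overlap. IL6ST, IL23R, IL27RA, IL16 and IL18RAP came next with overlapping ranges within 16.5 to 26.8 TPM.

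The sum over the 23 ligand genes was 39.7 to 40.9 TPM in WT and 73.1 to 77.1 TPM in Delta-TRRAP libraries. The largest changes within it were rises of IL18 (14.4 to 36.5 TPM) and IL16 (7.52 to 18.7) and a fall of IL7 (7.62 to 0.00968). The sum over the 31 receptor genes was 249 to 262 TPM and 230 to 261 TPM, which overlapped. The ligand sums of the groups lay apart, and single members moved widely in rank. IL10RA went from rank 19 to 3, IL1R1 from 24 to 10, IL18R1 from 4 to 15 and IL7 from 10 to 57.

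**Figure D4:**
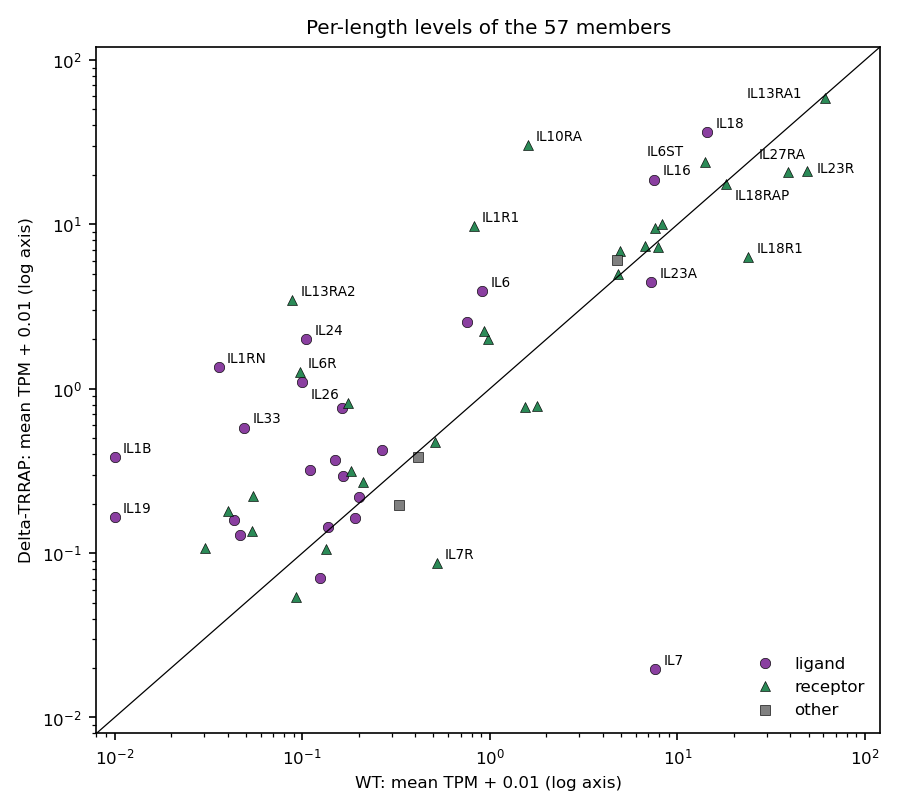
Mean TPM plus 0.01 of the 57 members in WT (horizontal, log axis) and Delta-TRRAP cells (vertical, log axis), circles for ligands, triangles for receptors and squares for the others. The diagonal marks equal levels; IL7 lies far below it, IL10RA, IL1R1 and a group of low ligands lie above it, and IL13RA1 lies at the top right close to it.

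Of 25 JAK, STAT and SOCS-type genes, which signal for many of the receptors, all were tested, and 4 were called higher and 2 lower, a share near the 22.6% of all genes. The kinase JAK3, partner of the common gamma chain, went from 2.67 to 18.2 mean normalized counts, a rise of 2.73 (edgeR), and STAT4, CISH and SOCS1 rose as well. JAK3 passed the filter on low counts through the Delta-TRRAP group alone, and could pass only by being high in that group. CISH and SOCS1 are feedback inhibitors that STAT factors induce, and CISH went from 1147 ± 24.5 to 3349 ± 80.0 (SD, n = 3 each), a rise of 1.54 (edgeR adjusted p = 1.01e-12), and SOCS1 from 61.5 to 175 (1.51, edgeR adjusted p = 2.48e-08). STAT5A, which many growth factor receptors activate, fell by 1.02 ± 0.05 (edgeR adjusted p = 8.3e-11), just past a fold of 2, and the phosphatase PTPN6 fell by 1.17. With library totals alone as the scale, only 1 gene of this list was called lower. The median log2 fold change of the 25 was 0.02. Of the 13 MyD88 and IL-17 adaptor genes tested, 4 were higher and 7 lower at edgeR's adjusted p alone. Of all genes tested, 58.3% passed that threshold. TRAF5 (-1.42) was the 1 adaptor that also passed the fold, while 22.6% of all genes were called. MYD88 itself differed by -0.64.

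Of 9 related cytokines tested that carry other names, 3 rose (LIF, OSM and CXCL8) and 1 fell (CSF1), where 16.5% of all genes rose and 6.08% fell. LIF and OSM passed the filter on low counts through the Delta-TRRAP group alone. Each could pass only by being high in that group, so the count of rises rests partly on the filter. LIF and OSM, IL-6 family cytokines, went from means of 0.98 and 1.67 to 25.1 and 14.5 normalized counts, CXCL8, the neutrophil chemoattractant IL-8, from 307 to 728 (1.25, edgeR adjusted p = 5.71e-08), and the macrophage growth factor CSF1 from 761 to 278 (-1.45, edgeR adjusted p = 4.8e-11). Of 6 related receptor chains tested, 1 rose (OSMR) and 1 fell (LIFR), against the same shares of all genes, and both chains pair with gp130. OSMR had 29.4, 50.8 and 62.1 in WT and 272, 323 and 252 in Delta-TRRAP libraries, a rise of 2.57 ± 0.18 (edgeR adjusted p = 4.56e-09). LIFR went from 5432 ± 178 to 2342 ± 250, a fall by 1.21 ± 0.07 (edgeR adjusted p = 4.2e-10).

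IL-1 beta and IL-18 are made as precursors that caspase-1 cuts within inflammasomes. Of 10 processing and release genes tested, 3 rose and 3 fell, where 16.5% of all genes rose and 6.08% fell. The DNA sensor AIM2 went from 30.0 to 191 mean normalized counts (2.67), and the pore-forming GSDMD (2.31 to 13.1) and NLRC4 rose too. CASP1 itself went from 37.3 to 15.1 (-1.30, edgeR adjusted p = 0.000239), and CASP4 (1069 to 399) and CASP5 (35.9 to 4.64) fell as well. GSDMD reached a mean of 5 in the Delta-TRRAP group alone, and CASP5 in the WT group alone. Each could pass the filter only by being high in that group.

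**Figure D5:**
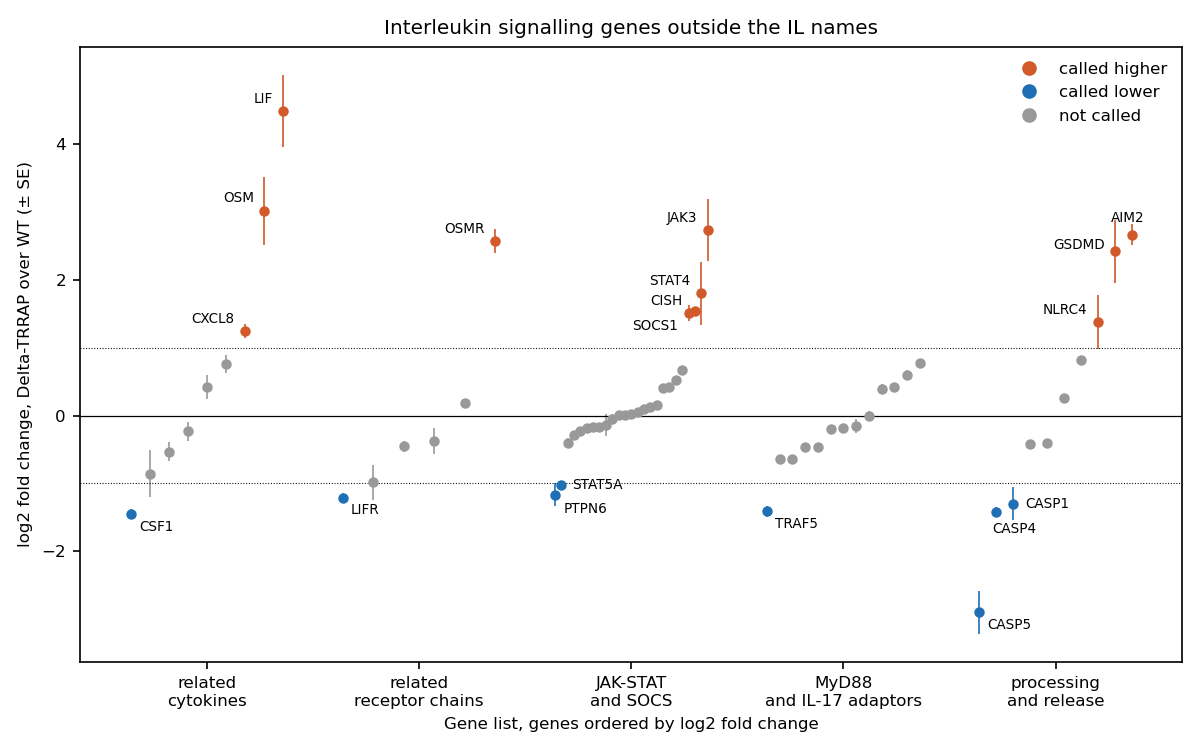
Log2 fold change of Delta-TRRAP over WT with its standard error for the tested genes of 5 lists of interleukin signalling genes without an IL name. Orange points were called higher, blue points lower and grey points not called, and dotted lines mark a fold of 2; called genes lie on both sides of 0 in 4 lists, and the adaptor list has TRAF5 alone below -1.

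Markers of other cell types that express these cytokines differed between the groups too. The 9 fibroblast markers summed to 0.87 to 1.40 CPM in WT and to 30.3 to 31.2 CPM in Delta-TRRAP libraries, with TNMD, PDGFRB and COL1A2 higher and PDGFRA and LUM at 0 in all 6. The 6 monocyte markers summed to 197 to 216 and to 23.6 to 25.6 CPM, with LYZ alone called, and lower. Others of that list went the other way. MARCO and CD163 had 0 counts in WT and some in Delta-TRRAP libraries, and CSF1R, below the filter, went from 0.68 to 4.04 mean normalized counts. The 6 mast cell markers summed to 7.39 to 7.71 and to 20.6 to 22.7 CPM, with MS4A2 called higher, HDC and KIT called lower, and CPA3 and TPSAB1 at 0 throughout. The 6 T cell markers summed to 12.5 to 12.6 and 11.1 to 12.4 CPM, with TRAC called lower, and the 5 endothelial markers to 16.5 to 16.9 and 10.8 to 12.8 CPM, with TEK alone called, and higher. The erythroid sum given above was higher, with HBZ and HBE1 called. The part of these differences in the interleukin results was not tested.

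Some members could not be read. The count tables held 0 counts for IL3RA and IL9R, which lie in regions shared by chromosomes X and Y, and only reads that mapped to 1 place were kept. In all, 16 of the 92 identifiers had no count, and 19 more had 1 to 9 counts over the 6 libraries, among them IL2RA (3, 2 and 1 in Delta-TRRAP and 0 in each WT library), the high-affinity chain for IL-2.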

How the data were processed

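Poly(A) RNA was sequenced with a stranded protocol from 3 WT and 3 Delta-TRRAP samples. The authors aligned reads to hg38 with STAR, kept uniquely mapping reads, and deposited raw counts per GENCODE gene from HTSeq 2.0.2 (reverse strand, union mode). The deposited tables with normalized values (including columns of a further condition) and with the authors' own fold changes and p-values were not used. Genes averaging 5 or more normalized counts were tested with edgeR 4.0.16 (TMM factors, quasi-likelihood test, group as the only term), called at a Benjamini-Hochberg adjusted p of at most 0.01 and a fold change of at least 2, the study's thresholds, where DESeq2 had been used. Normalized counts are counts over TMM size factors. Standard errors of log2 fold changes were derived from edgeR's F statistic and can be too small at low counts. TPM used exon lengths of GENCODE release 44 on GRCh38, which also gave gene positions and shared exon lengths, whereas the counts were made on release 32, so that lengths and gene models can differ from those counted.

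Genes named with full statistics were the called ligands and receptors and members with a mean of at least 100. The members and lists were chosen with earlier results of these data known. Libraries held 35076835 to 42616061 counts, and replicates of a group differed by more than sampling noise. Alternatives were other scalings, filters, thresholds, a replicate block, DESeq2 1.42.0 and leaving out each library.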

Additional observations from a re-analysis of the deposited data

How the results depend on the processing

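No member was called in the opposite direction under any alternative run. The number of members called higher was 14 to 19 and lower 5 to 6 when each library was left out. With a mean of at least 20 required, fewer genes were tested. Ligands called higher then numbered 6, JAK-STAT and SOCS genes 2 higher and 1 lower, processing genes 1 higher and related cytokines 1 higher. STAT5A and PTPN6, the JAK-STAT and SOCS genes called lower in the main fit, both had means above 20. With library totals alone as the scale, which moved the all-gene median (log2) from 0.03 to 0.17, JAK-STAT and SOCS genes called lower numbered 1, the ligand median was 1.84, the receptor median 0.37, and IL13RA1 (0.0119) and IL18RAP (0.0532) turned positive. With a fold of 1.5, ligands called lower numbered 2, adaptors 2 higher and 3 lower, and related receptor chains 2 lower. With a raw total of at least 10 as the filter, related receptor chains called lower numbered 2, the ligand median was 1.54 and IL2RG gave -0.00655. The ligand median was 1.53 with a mean of at least 20. Over the fits without 1 library the ligand median was 1.48 to 1.87, the receptor median 0.153 to 0.259, the receptor chains called lower 1 to 2, and IL2RG -0.0472 to 0.0911 (-0.0472 and -0.032 without WT replicates 1 and 2, -0.0449 without Delta-TRRAP replicate 3). The cause was not tested. The replicate numbers did not pair the libraries (correlations of deviations -0.00946, -0.0293 and -0.019, and no library correlated best with its own number). A fit with the replicate block lost IL15 (adjusted p 0.0114 by edgeR) and gained IL17B. Low counts limit what can be said of the 9 members that were not tested.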
